A study of Homo sapiens with 6 samples.

Results

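The SLC25 genes encode the mitochondrial carrier family, and 48 of the 17280 genes in the deposited table belong to it, chosen as every row whose symbol starts with SLC25A and a number. The study sequenced RNA from 6 libraries of CAL-27 spheres; CAL-27 is a long-established cell line from a human squamous carcinoma of the tongue, and sphere culture, in suspension, favours its stem-like cells. The LF3 group holds 3 libraries titled with LF3, a compound that keeps beta-catenin from TCF4 and so inhibits Wnt signalling, for 24 h per the series design; in their treatment field elesclomol with copper is named in its place, elesclomol being a copper ionophore. The CON group holds 3 libraries of CAL-27 spheres labelled as normal controls. Both groups are the same single cell line, no dose is given for either agent, and whether replicates came from separate cultures is not stated, so the p-values cover no more than the spread among these libraries, possibly a technical one. The groups follow the titles, so which agent the LF3 libraries received cannot be told from the labels.

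Carriers of this family sit, with few exceptions, in the inner mitochondrial membrane, which is otherwise closed to charged molecules. Each carrier alternates between a state open to the cytosol and a state open to the matrix, and most exchange one solute for another: ADP for ATP, aspartate for glutamate, malate for oxoglutarate. In tumour cells they supply the matrix with phosphate, copper, iron, cofactors and nucleotides and move aspartate, citrate and ornithine out for synthesis in the cytosol. They carry no cleaved presequence as a rule and are inserted by the TIM22 complex.

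The values are TPM, a length-corrected abundance relative to all transcripts of the library, and keep no read numbers, so depth is unknown and counting intervals are not given. Gene levels are means ± SD in TPM with n = 3 in each group. A log2 fold change is the difference of mean log2(TPM + 1), LF3 minus CON, given ± its limma standard error. This scale understates the change of low genes. Genes averaging 1 TPM or more across the 6 libraries entered the limma test, and a gene was called at a Benjamini-Hochberg adjusted p under 0.05 over the 12195 genes tested. Over all tested genes the median log2 fold change was 0.24; it was -0.0055 after a median-ratio rescaling of the libraries, and counts after this rescaling are given beside those from TPM as deposited. Squamous epithelial markers summed to 1692 to 1725 TPM in the LF3 libraries and 1187 to 1211 TPM in the CON libraries. Of the 7 tested, 5 were called higher and 1 lower, against 53.2% and 32.3% of all genes tested. After rescaling 3 were higher and 3 lower, against 42.6% and 42.7%. KRT5 averaged 454 ± 6.66 TPM in LF3 and 102 ± 3.43 TPM in CON. KRT17 went the other way, with 58.8 ± 0.706 TPM in LF3 and 200 ± 8.66 TPM in CON. KRT14, one of the 8, averaged 0.447 TPM in LF3 and 0.777 TPM in CON. The 4 leukocyte markers summed to 46.94 to 51.41 TPM in LF3 and 327.54 to 340.08 TPM in CON, nearly all of it CD68. CD68 averaged 47.4 ± 2.25 TPM in LF3 and 334 ± 6.49 TPM in CON. CD14 went the other way, with 1.99 ± 0.302 TPM in LF3 and 0.693 ± 0.236 TPM in CON. PTPRC was listed at 0 in LF3 and averaged 0.0133 TPM in CON, and CD3E averaged 0.09 TPM in LF3 and 0.0633 TPM in CON. The 3 endothelial markers summed to 6.24 to 7.26 TPM in LF3 and 0.39 to 0.53 TPM in CON, in LF3 almost all of it CDH5, and the 5 fibroblast markers to 6.03 to 7.04 TPM in LF3 and 11.96 to 13.56 TPM in CON, with COL3A1 and DCN listed at 0 in LF3. Their part in the carrier results was not tested. As both groups are the same single cell line, these sums are not read as amounts of leukocytes, endothelial cells or fibroblasts. In bulk RNA, fewer cells holding a marker and less of its RNA per cell cannot be told apart.

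Most carrier genes held more RNA in the LF3 libraries. Of the 39 carriers tested 36 were called, against 85.5% of all genes tested: 27 (69.2%) were higher and 9 (23.1%) lower, against 53.2% higher and 32.3% lower among all genes tested. After rescaling, 26 carriers were higher and 12 lower, against 42.6% and 42.7% of all genes. At least 2-fold on the log2(TPM + 1) scale, 15 carriers (38.5%) were higher and 4 (10.3%) lower, against 20.8% and 11.1% of all genes. The median log2 fold change of the tested carriers was 0.88 (0.63 after rescaling), and the range was -1.49 to 2.99. The groups did not overlap in 27 higher and 10 lower carriers, against 86.2% of all genes tested, 53.5% higher and 32.7% lower. Summed over all 48 carriers, the level was 2313, 2315 and 2349 TPM in the LF3 libraries and 1626, 1619 and 1641 TPM in the CON libraries, a 1.43-fold ratio of means.

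**Figure D1:**
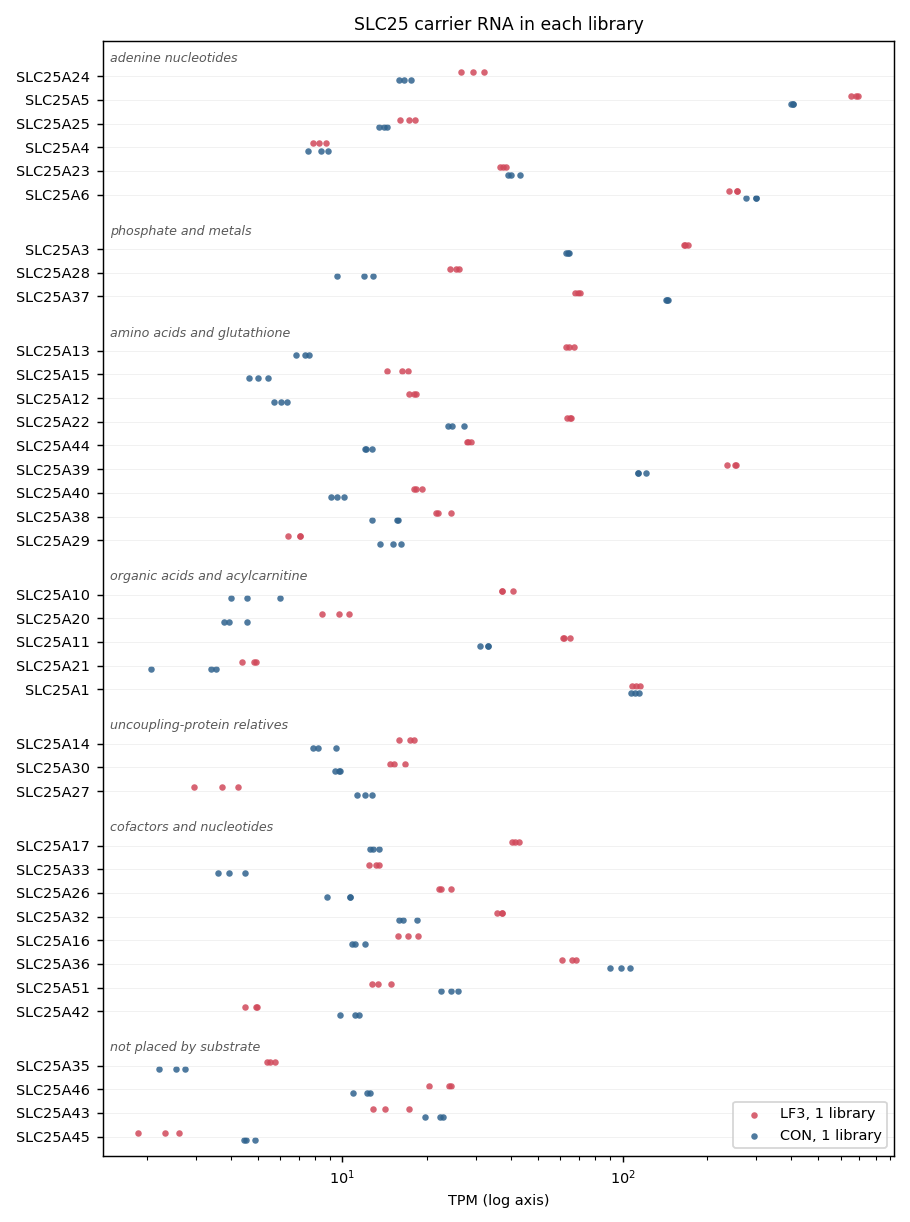
TPM of the tested carriers described here on a log axis, 1 point per library, LF3 in red and CON in blue, grouped by transported substrate. The points of the groups stand apart for SLC25A13 and SLC25A10, and overlap for SLC25A1 and SLC25A4.

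By transported substrate, the carriers of amino acids and glutathione had the highest ratio of summed levels, with a summed level of 488 ± 6.55 TPM in LF3 and 212 ± 5.64 TPM in CON, or 2.30-fold. Carriers of organic acids and acylcarnitine had 227 ± 6.66 TPM in LF3 and 155 ± 3.98 TPM in CON, and those of adenine nucleotides 1020 ± 18.7 TPM in LF3 and 776 ± 19.5 TPM in CON. The ratios of means were 1.46 and 1.31 for these groups, 1.26 for carriers of cofactors and other nucleotides, 1.21 for the relatives of uncoupling proteins and 1.20 for carriers of phosphate and metals. These sums rest on the most abundant members, and the medians of the log2 fold changes put the groups in another order. They were 1.14 for amino acids and glutathione, 1.09 for phosphate and metals, 1.07 for cofactors and nucleotides, 0.93 for organic acids and acylcarnitine, 0.64 for the relatives of uncoupling proteins and 0.14 for adenine nucleotides (-0.11 after rescaling). Differences between the groups were not tested.

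**Figure D2:**
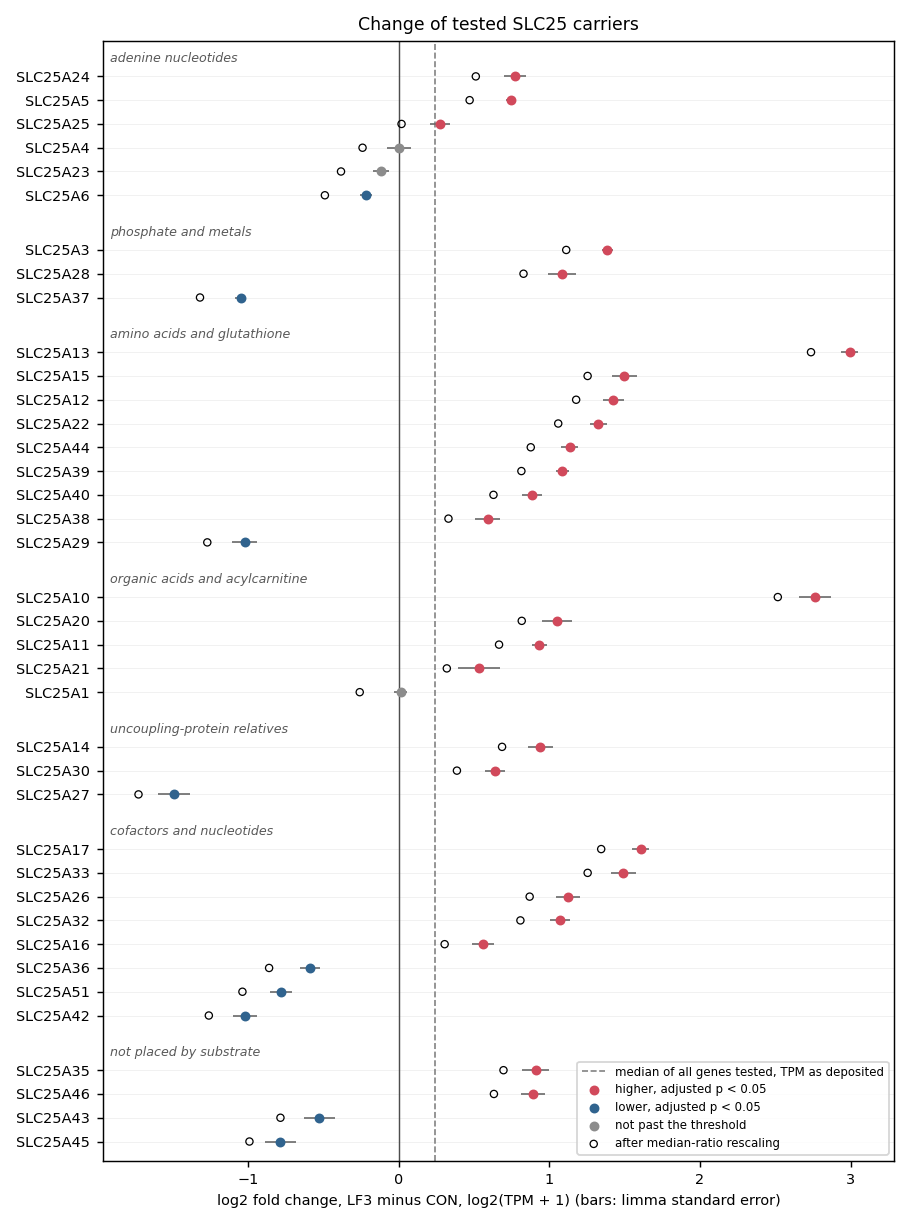
Log2 fold change of the tested carriers described here, LF3 minus CON in log2(TPM + 1), as filled points with limma standard errors; open points give the value after median-ratio rescaling and the dashed line the median of all genes tested, 0.24. Carriers called higher are in red, the 9 lower in blue and the 3 not past the threshold in grey.

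Promoter sequence was searched for short motifs in carriers that were higher and lower alike. The windows printed below were picked because they hold an E-box. RefSeq windows of GRCh38.p14, from 250 bases before to 50 after each gene start, were found for 40 of the 48 carriers. These 40 include carriers below the filter, whereas the shares given for tested genes leave such genes out. The E-box CACGTG, which reads the same on both strands and is bound by factors of the MYC and USF type, stood in 9 of the 40 (22.5%), against 8.79% of all genes in the RefSeq table and 12.7% of those tested here. It was held by 6 of 22 higher carriers (27.3%) and by 2 of 8 lower ones (25%); the ninth was SLC25A31, below the filter. The windows of these 8 carriers are shown 5′ to 3′ on the gene's strand, with each E-box in capitals.
SLC25A13, higher, chr7:96322230-96322289, minus strand: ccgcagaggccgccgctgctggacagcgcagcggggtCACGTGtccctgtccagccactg
SLC25A22, higher, chr11:795413-795472, minus strand: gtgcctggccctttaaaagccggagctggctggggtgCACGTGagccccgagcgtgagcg
SLC25A26, higher, chr3:66220940-66220999, plus strand: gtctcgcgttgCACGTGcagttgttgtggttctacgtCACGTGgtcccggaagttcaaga
SLC25A33, higher, chr1:9539402-9539461, plus strand: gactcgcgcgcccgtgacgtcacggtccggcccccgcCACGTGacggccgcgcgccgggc
SLC25A38, higher, chr3:39383289-39383348, plus strand: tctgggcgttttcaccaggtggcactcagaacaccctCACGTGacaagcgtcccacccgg
SLC25A46, higher, chr5:110738923-110738982, plus strand: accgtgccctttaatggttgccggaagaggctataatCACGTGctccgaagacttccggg
SLC25A36, lower, chr3:140941656-140941715, plus strand: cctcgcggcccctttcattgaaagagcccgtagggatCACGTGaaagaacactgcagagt
SLC25A51, lower, chr9:37904164-37904223, minus strand: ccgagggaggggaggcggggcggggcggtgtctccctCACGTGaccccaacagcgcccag

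The E-box began 154 bases before the gene start in SLC25A13, 143 in SLC25A36, 59 in SLC25A51, 47 in SLC25A46, 44 in SLC25A38, 26 in SLC25A33 and 3 in SLC25A22, where it runs across the start. SLC25A26 held a pair of them, 50 and 24 bases before its start. These matches are letters in a window, not sites of binding. The shorter core ACGTG of the hypoxia response element, which every E-box contains, stood in 35% of the 40 carriers and 32.4% of tested genes. In carriers and in tested genes, the NRF1 site stood in 12.5% and 13.4% and the GC box GGGCGG in 75% and 77.6%. The core TGACNNNGC of the antioxidant response element stood in 22.5% and 19.5%, and the ERR site AAGGTCA in 2.5% and 3.71%. Each was searched on both strands. Of the 22 higher and 8 lower carriers, 40.9% and 50% held ACGTG, 9.09% and 12.5% the NRF1 site and 77.3% and 87.5% the GC box. The core TGACNNNGC stood in 31.8% and 12.5% of them, and the ERR site in 0% of both.

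The ADP/ATP carriers, which exchange matrix ATP for cytosolic ADP, include the family's most abundant members, SLC25A5 and SLC25A6, and did not move together. With the ATP-Mg/phosphate carriers they make up the 6 tested carriers of adenine nucleotides, of which 3 were higher and 1 lower, and 2 and 3 after rescaling. All genes tested had 53.2% higher and 32.3% lower, and 42.6% and 42.7% after rescaling. SLC25A5 (NCBI gene 292), the form of proliferating cells, had 653.07, 682.48 and 695.00 TPM in the LF3 libraries, against 407.53, 398.73 and 404.78 TPM in the CON libraries. Every LF3 value lay above every CON value, and the log2 fold change was 0.74 ± 0.033 (limma adjusted p = 2.91e-09; 0.47 after rescaling). SLC25A6 (NCBI gene 293), a broadly expressed form, had 255.96, 240.80 and 255.29 TPM in LF3, against 299.16, 276.34 and 299.70 TPM in CON. All LF3 values were the lower ones here, by a log2 fold change of -0.22 ± 0.042 (limma adjusted p = 0.000596), which was -0.49 after rescaling and -0.44 after quantile normalization. SLC25A4 (NCBI gene 291), the form of heart and muscle, had 8.75, 8.28 and 7.82 TPM in LF3, against 8.89, 7.55 and 8.36 TPM in CON. These values overlapped, at a log2 fold change of 0.0040 ± 0.080 (limma adjusted p = 0.964), which became -0.24 (adjusted p = 0.0121) after rescaling and -0.22 after quantile normalization. SLC25A31, the testis form, was below the filter, at 0.0200 ± 0.0346 TPM in LF3 and 0.0233 ± 0.0404 TPM in CON.

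Within the ADP/ATP carriers the balance moved towards SLC25A5, a share of TPM that multiplying a library by a factor leaves as it is. SLC25A5 held 71.2, 73.3 and 72.5% of their summed TPM in the LF3 libraries, against 57.0, 58.4 and 56.8% in the CON libraries. SLC25A6 held 27.9, 25.8 and 26.6% in LF3, against 41.8, 40.5 and 42.0% in CON. Neither set of shares overlapped between groups. The log2 ratio of SLC25A5 to SLC25A6 was 1.43 ± 0.0763 in LF3 and 0.47 ± 0.0517 in CON, a difference of 0.96 (exact permutation test, two-sided, p = 0.1, the smallest that 3 against 3 allows). Of 50-base windows, the length of the reads, none of the SLC25A4 transcript stood in a transcript of another gene of GENCODE release 29, against 230 of 1225 for SLC25A5, most of them in its own antisense RNA, and 19 of 2013 for SLC25A6, in a pseudogene.

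**Figure D3:**
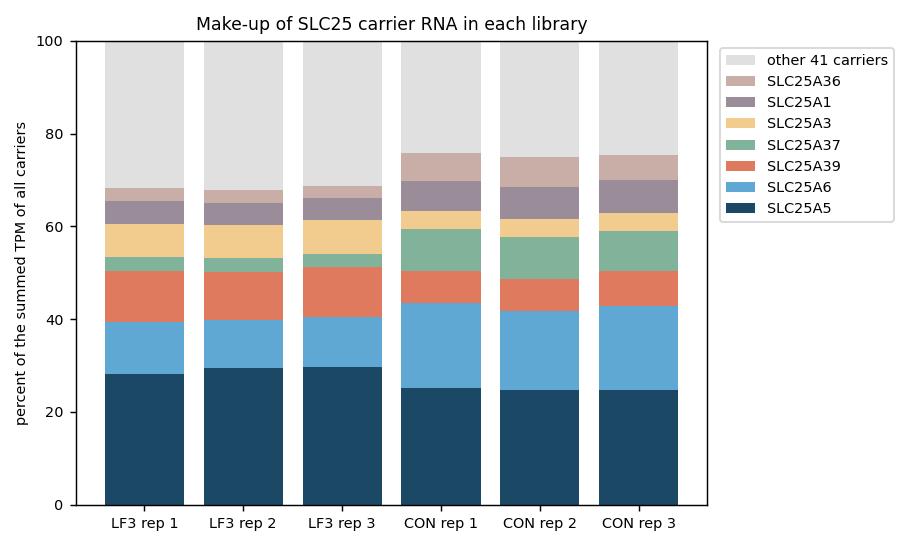
Percent of the summed TPM of all carriers held by 7 abundant members in each library, LF3 left of CON. SLC25A5 averaged 29.1% in LF3 and 24.8% in CON, SLC25A6 10.8% in LF3 and 17.9% in CON, and SLC25A37 2.98% in LF3 and 8.85% in CON.

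The calcium-regulated ATP-Mg/phosphate carriers, which adjust the total adenine nucleotide pool of the matrix, were mixed. SLC25A24 averaged 29.2 ± 2.70 TPM in LF3 and 16.7 ± 0.843 TPM in CON and was called higher, at 0.77 ± 0.073 (0.51 after rescaling). SLC25A25 averaged 17.2 ± 1.06 TPM in LF3 and 14.0 ± 0.463 TPM in CON, a log2 fold change of 0.28 ± 0.065 (limma adjusted p = 0.00224) that became 0.018 (adjusted p = 0.809) after rescaling. SLC25A23 averaged 37.5 ± 0.885 TPM in LF3 and 40.7 ± 2.16 TPM in CON. Its log2 fold change of -0.12 ± 0.052 missed the threshold (limma adjusted p = 0.0578), and it was called lower after rescaling (-0.38), after quantile normalization (-0.48) and without CON replicate 2 (-0.15, adjusted p = 0.0355). SLC25A23 was 1.28 times SLC25A24 in LF3 and 2.44 times in CON. SLC25A41, a relative without the calcium-binding part, stood below the filter, with 0.36, 0.28 and 0.26 TPM in LF3 and 0.66, 0.72 and 1.06 TPM in CON.

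The phosphate and copper carrier and the paired iron carriers all changed, the iron carriers in opposite directions. SLC25A3 (NCBI gene 5250) imports phosphate for ATP synthesis and copper for cytochrome c oxidase, the enzyme at the end of the respiratory chain. It had 165.72, 167.19 and 170.55 TPM in the LF3 libraries, against 63.02, 63.72 and 64.49 TPM in the CON libraries. The libraries of a group lay within a few TPM of each other, and the ratio of means was 2.63.

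SLC25A28 (NCBI gene 81894), mitoferrin-2, the iron carrier of most tissues, had 24.16, 25.45 and 26.08 TPM in LF3, against 9.54, 12.84 and 11.92 TPM in CON. All LF3 values were higher, at a log2 fold change of 1.09 ± 0.093 (limma adjusted p = 8.05e-07). SLC25A37 (NCBI gene 51312), mitoferrin-1, best known from developing red cells, had 70.73, 69.23 and 67.62 TPM in LF3, against 144.28, 145.21 and 142.99 TPM in CON. All LF3 values were lower, at -1.05 ± 0.037 (limma adjusted p = 5.66e-10). SLC25A37 was the more abundant of the pair in both groups, while the TPM ratio of SLC25A28 to SLC25A37 was 0.365 in LF3 and 0.0793 in CON. On the log2 scale this ratio was -1.42 ± 0.0856 in LF3 and -3.55 ± 0.203 in CON, a difference of 2.13. By level SLC25A37 ranked 6 among the carriers in LF3 and 3 in CON.

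Carriers of amino acids and glutathione had 8 of 9 tested members higher and 1 lower, with the same counts after rescaling. Among all genes tested, 53.2% were higher and 32.3% lower, and 42.6% and 42.7% after rescaling. The highest rise of the family was in SLC25A13 (NCBI gene 10165), citrin, which sends aspartate from the matrix to the cytosol in exchange for glutamate as part of the malate-aspartate shuttle, and one of the E-box carriers. SLC25A13 had 62.71, 66.93 and 64.25 TPM in the LF3 libraries, against 7.34, 6.82 and 7.59 TPM in the CON libraries. The ratio of means was 8.91, and the log2 fold change of 2.99 ± 0.058 (limma adjusted p = 9.05e-12) was above that of 99.6% of all genes tested. Its paralog SLC25A12 (NCBI gene 8604), aralar, which performs the same exchange, had 18.02, 18.30 and 17.24 TPM in LF3, against 6.05, 5.68 and 6.34 TPM in CON. SLC25A12 was higher as well, by 2.96-fold, but less so than SLC25A13: its TPM was 0.276 of that of SLC25A13 in LF3 and 0.831 in CON.

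SLC25A22, a glutamate carrier, had 65.01, 63.21 and 65.54 TPM in LF3, against 24.70, 23.75 and 27.18 TPM in CON. SLC25A15, which exchanges ornithine and citrulline for the urea cycle, had 14.48, 16.35 and 17.07 TPM in LF3, against 4.63, 5.41 and 4.98 TPM in CON. The groups did not overlap in either gene, with log2 fold changes of 1.33 ± 0.056 and 1.5 ± 0.083. Their paralogs were barely present: SLC25A18, the other glutamate carrier, averaged 0.837 ± 0.0416 TPM in LF3 and 0.480 ± 0.269 TPM in CON, and SLC25A2, the other ornithine carrier, was listed at 0 in 5 of the 6 libraries.

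SLC25A44, a carrier of branched-chain amino acids, had 27.80, 28.00 and 28.72 TPM in LF3, against 12, 12.75 and 12.10 TPM in CON. SLC25A39, which imports glutathione, the main thiol antioxidant of the matrix, had 254.44, 236.58 and 251.53 TPM in LF3, against 113.45, 113.21 and 121.50 TPM in CON. SLC25A39 ranked 3 by level among the carriers in LF3 and 4 in CON, and both genes were higher in every LF3 library, at 1.14 ± 0.056 and 1.09 ± 0.043. Its paralog SLC25A40 averaged 18.5 ± 0.654 TPM in LF3 and 9.60 ± 0.507 TPM in CON, so that the ratio of the pair differed little, at 13.4 in LF3 and 12.1 in CON. SLC25A38, which brings in glycine for heme synthesis, was called higher at 0.59 ± 0.086 (0.33 after rescaling). The exception was SLC25A29, a carrier of basic amino acids, with 7.07, 7.07 and 6.37 TPM in LF3, against 13.57, 15.12 and 16.17 TPM in CON. Its log2 fold change was -1.02 ± 0.080 (limma adjusted p = 3.59e-07).

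Of 5 carriers of organic acids and acylcarnitine, 4 were higher and 0 lower, and 4 and 1 after rescaling. The shares over all genes tested were 53.2% higher and 32.3% lower, and 42.6% and 42.7% after rescaling. SLC25A10 (NCBI gene 1468), which exchanges malate or succinate for phosphate, had 37.26, 37.24 and 40.56 TPM in LF3, against 4.58, 3.99 and 5.97 TPM in CON. Every LF3 value was several times the highest CON value; the ratio of means was 7.91 and the log2 fold change 2.76 ± 0.11 (limma adjusted p = 1.14e-09). Of its 50-base windows 56.9% also stood in transcripts of 1 other gene annotated as protein coding, so reads of SLC25A10 and that gene may not be separable. For SLC25A11, 10% of windows stood in its opposite-strand neighbour RNF167, itself higher at 0.45 ± 0.048. SLC25A11, which exchanges oxoglutarate for malate in the malate-aspartate shuttle, averaged 62.7 ± 1.79 TPM in LF3 and 32.4 ± 1.28 TPM in CON. SLC25A20, which brings acylcarnitine in for fatty acid oxidation, averaged 9.59 ± 1.08 TPM in LF3 and 4.10 ± 0.421 TPM in CON. SLC25A21, a carrier of oxodicarboxylates, had a log2 fold change of 0.53 ± 0.14 (limma adjusted p = 0.00411) with 4.84, 4.92 and 4.39 TPM in LF3, against 3.39, 3.54 and 2.08 TPM in CON; it was 0.32 (adjusted p = 0.0487) after rescaling and 0.36 (adjusted p = 0.00608) without CON replicate 3.

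The citrate carrier was the exception in this group. SLC25A1 (NCBI gene 6576), which exports citrate for the synthesis of lipids, had 111.76, 108.01 and 115.23 TPM in LF3, against 107.61, 110.47 and 114.02 TPM in CON. The values overlapped, at a log2 fold change of 0.012 ± 0.041 (limma adjusted p = 0.786). SLC25A1 was called lower after both scalings, at -0.26 (adjusted p = 0.00044) after median-ratio rescaling and -0.30 (adjusted p = 6.36e-05) after quantile normalization. ACLY, the cytosolic enzyme that cleaves exported citrate, averaged 110 ± 2.06 TPM in LF3 and 57.3 ± 0.719 TPM in CON.

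The 3 relatives of uncoupling proteins divided. SLC25A27, described mainly from brain, had the lowest log2 fold change of the family, with 4.25, 3.72 and 2.95 TPM in LF3, against 11.25, 12.76 and 11.99 TPM in CON. The level was 3.30-fold lower in LF3 by the ratio of means, and the log2 fold change was -1.49 ± 0.11 (limma adjusted p = 1.52e-07). SLC25A14 averaged 17.2 ± 1.12 TPM in LF3 and 8.50 ± 0.901 TPM in CON, and SLC25A30 15.6 ± 0.968 TPM in LF3 and 9.65 ± 0.224 TPM in CON, both called higher.

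Among carriers of cofactors and nucleotides, 6 of 9 tested members were higher and 3 lower, with the same counts after rescaling. All genes tested had 53.2% higher and 32.3% lower, and 42.6% and 42.7% after rescaling. SLC25A17, a carrier of cofactors in the peroxisomal rather than the mitochondrial membrane, had 40.17, 42.77 and 41.31 TPM in LF3, against 12.50, 12.83 and 13.51 TPM in CON. SLC25A26, the importer of S-adenosylmethionine for methylation in the matrix, had 22.15, 24.36 and 22.49 TPM in LF3, against 10.62, 10.63 and 8.84 TPM in CON. In both genes every LF3 value was higher, at log2 fold changes of 1.60 ± 0.055 and 1.12 ± 0.079. SLC25A32, the carrier of folate and FAD, averaged 36.6 ± 0.922 TPM in LF3 and 16.9 ± 1.36 TPM in CON. Nearly all of its windows (97.5%) also stood in transcripts of other annotated genes, so its reads are uncertain. Its opposite-strand neighbour DCAF13, at 98.8 ± 5.67 TPM in LF3 and 54.6 ± 1.39 TPM in CON, was itself higher at 0.84 ± 0.050. Among other called carriers, 33.1% of the windows of SLC25A21, 21.6% of those of SLC25A33, 14.9% of those of SLC25A25 and 13.5% of those of SLC25A24 stood in transcripts of other genes, mostly antisense RNAs and, for SLC25A33, a pseudogene.

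Paralogous carriers of nucleotides and coenzyme A parted. SLC25A33, which brings pyrimidine nucleotides into the matrix for mitochondrial DNA and RNA, had 12.47, 13.14 and 13.46 TPM in LF3, against 3.93, 4.48 and 3.59 TPM in CON. SLC25A36, its paralog for the same class of substrate, had 68.07, 66.00 and 60.85 TPM in LF3, against 98.97, 106.53 and 89.86 TPM in CON. SLC25A33 was higher (1.49 ± 0.084) and SLC25A36 lower (-0.59 ± 0.065, and -0.93 after quantile normalization), so their TPM ratio was 0.200 in LF3 and 0.0406 in CON. SLC25A16 and SLC25A42, both tied to coenzyme A, were nearly equal in CON, at a ratio of 1.05, and differed in LF3, at 3.59. SLC25A42 had 4.93, 4.95 and 4.49 TPM in LF3, against 11.08, 11.42 and 9.83 TPM in CON, while SLC25A16 averaged 17.2 ± 1.36 TPM in LF3 and 11.3 ± 0.667 TPM in CON.

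The NAD importer SLC25A51 was among the 3 lower ones, with 12.80, 14.88 and 13.39 TPM in LF3, against 22.51, 25.75 and 24.33 TPM in CON. Its log2 fold change was -0.78 ± 0.073 (limma adjusted p = 1.68e-06). SLC25A52, its near copy, averaged 0.187 ± 0.0850 TPM in LF3 and 0.0333 ± 0.0577 TPM in CON; 346 of the 1707 windows of SLC25A51 stood in SLC25A52 too.

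Of the 4 tested carriers placed in no substrate group here, 2 were higher and 2 lower, against 53.2% and 32.3% of all genes tested. SLC25A46, an outer-membrane protein that shapes mitochondria, averaged 22.9 ± 2.15 TPM in LF3 and 11.9 ± 0.820 TPM in CON, and SLC25A35 5.55 ± 0.177 TPM in LF3 and 2.49 ± 0.263 TPM in CON. Of the windows of SLC25A35, 28.4% stood in its opposite-strand neighbour RANGRF, which itself was higher at 0.57 ± 0.068. SLC25A43 had 17.34, 14.20 and 12.85 TPM in LF3, against 19.67, 22.93 and 22.32 TPM in CON. SLC25A45 had 1.87, 2.32 and 2.61 TPM in LF3, against 4.88, 4.44 and 4.51 TPM in CON. Both were lower in every LF3 library, at -0.53 ± 0.10 (-0.84 after quantile normalization) and -0.79 ± 0.10. The other 4 of this group, SLC25A34, SLC25A47, SLC25A48 and SLC25A53, were among the 9 carriers below the filter, whose highest value in any library was the 1.06 TPM of SLC25A41 in CON replicate 3.

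Paralogs were also compared by their ratio in log2(TPM + 1) within each library, which, because of the pseudocount, is not wholly free of the scaling of a library. Of 15 pairs considered, 11 had both members tested. The groups did not overlap in 86.2% of all single genes tested, and ratios of other gene pairs were not computed. In 10 of the 11 pairs the groups did not overlap (exact permutation test, two-sided, p = 0.1 each, the smallest possible). For SLC25A39/SLC25A40 this rests on the pseudocount of 1 TPM: with 0.5 and 0.1 TPM its groups overlapped, at exact permutation p = 0.2 and 0.3. The differences in log2 ratio, LF3 minus CON, were 2.13 for SLC25A28/SLC25A37, 2.08 for SLC25A33/SLC25A36, 1.83 for SLC25A10/SLC25A11 and 1.58 for SLC25A16/SLC25A42. The lowest was that of SLC25A12/SLC25A13, at -1.57, followed by SLC25A23/SLC25A24 at -0.89 and SLC25A4/SLC25A5 at -0.74. SLC25A24/SLC25A25 had 0.50 and SLC25A39/SLC25A40 0.20. SLC25A14/SLC25A30 overlapped between groups, at 0.13 ± 0.173 in LF3 and -0.17 ± 0.119 in CON (exact permutation p = 0.2).

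**Figure D4:**
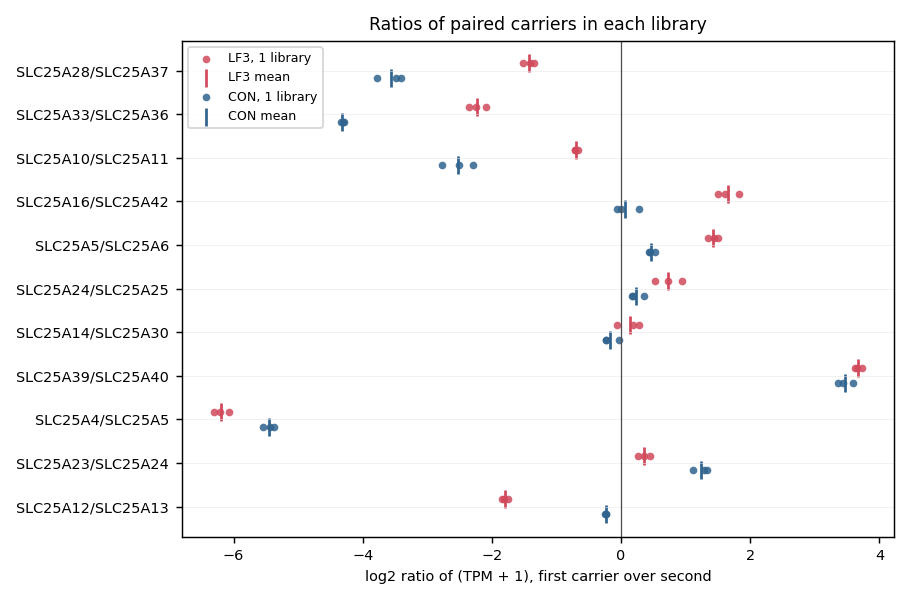
Log2 ratio of TPM + 1 between paired carriers in each library, LF3 in red above CON in blue, with bars at the group means, ordered by the difference between groups. The pair of iron carriers stands at -1.42 in LF3 and -3.55 in CON, and the points of SLC25A14/SLC25A30 overlap at this pseudocount.

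Genes that work next to the carriers are given beside the 53.2% higher and 32.3% lower of all genes tested (42.6% and 42.7% after rescaling). Of 13 genes that import and insert carriers, 11 were higher and 1 lower (11 and 2 under rescaling), and their median log2 fold change was 1.60. The pore of the outer membrane TOMM40 averaged 242 ± 6.88 TPM in LF3 and 28.6 ± 2.03 TPM in CON. TOMM22, a receptor beside that pore, averaged 99.6 ± 2.86 TPM in LF3 and 26.2 ± 1.43 TPM in CON. Small chaperones guide the carriers on between the membranes, among them TIMM8B, with 48.7 ± 1.38 TPM in LF3 and 3.24 ± 0.276 TPM in CON, and TIMM13, with 73.1 ± 1.16 TPM in LF3 and 19.1 ± 1.09 TPM in CON. TIMM22, the insertion pore of the inner membrane, averaged 19.1 ± 1.19 TPM in LF3 and 5.62 ± 0.518 TPM in CON. The 1 lower member was TIMM10B, a chaperone bound to TIMM22, at -0.64 ± 0.051 (limma adjusted p = 3.99e-07).

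Of 24 tested transporters of the mitochondrial membranes outside the family symbol, 17 were higher and 3 lower (15 and 6 under rescaling), and their median was 0.51. MTCH2, a carrier relative of the outer membrane, averaged 137 ± 1.99 TPM in LF3 and 38.4 ± 0.380 TPM in CON, while MTCH1 averaged 204 ± 2.98 TPM in LF3 and 306 ± 3.55 TPM in CON. The other lower members were SFXN3, at -0.58 ± 0.051, and VDAC2, a channel of the outer membrane, at -0.082 ± 0.034 (limma adjusted p = 0.0399); VDAC3 was higher at 1.59 ± 0.043 and LETM1, an ion exchanger of the inner membrane, at 2.49 ± 0.072. SFXN2, of the sideroflexins, a family that includes a serine carrier, averaged 14.7 ± 0.916 TPM in LF3 and 0.497 ± 0.175 TPM in CON. Of the pyruvate carrier, MPC1 was called higher at 0.46 ± 0.066 and MPC2 had 0.012 ± 0.040 (limma adjusted p = 0.774; -0.26 and called lower after rescaling).

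Of 23 tested enzymes that use or make what carriers move, 21 were higher and 0 lower (17 and 2 after rescaling). The enzymes of the malate-aspartate shuttle beside SLC25A13 and SLC25A11 were all called higher, with GOT2 at 234 ± 7.44 TPM in LF3 and 60.4 ± 0.315 TPM in CON and MDH1 at 329 ± 13.7 TPM in LF3 and 160 ± 2.59 TPM in CON. CPT1A, which makes the acylcarnitine that SLC25A20 carries, averaged 40.3 ± 0.340 TPM in LF3 and 3.97 ± 0.0954 TPM in CON. MAT2A, which makes S-adenosylmethionine, the substrate of SLC25A26, averaged 202 ± 3.69 TPM in LF3 and 38.2 ± 0.734 TPM in CON. COASY, which completes coenzyme A, averaged 161 ± 5.14 TPM in LF3 and 55.3 ± 1.12 TPM in CON. FECH, which inserts iron in the last step of heme synthesis in the matrix, averaged 14.0 ± 0.741 TPM in LF3 and 2.48 ± 0.136 TPM in CON. ALAS1, which joins glycine to succinyl-CoA in the first step of that pathway, had -0.038 ± 0.061 (limma adjusted p = 0.576). After rescaling, ALAS1 was at -0.31 and called lower.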

How the data were processed

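TPM per gene and library were deposited by the authors. HISAT, Bowtie2 and GRCm38.p6, a mouse assembly, are listed per the submitters' processing notes, whereas the identifiers and symbols in the table are human. The sources used here do not give how reads were counted, with regard to strand and multiple matches; near copies and overlapping neighbours are therefore uncertain. Per the labels' protocols, reads were single-end, 50 bases, on BGISEQ500. TPM keeps no depth.

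Values were transformed to log2(TPM + 1). The 12195 genes averaging 1 TPM or more were compared, LF3 against CON, with limma 3.58.1 in R 4.3.3 (moderated statistic, mean-variance trend, two-sided, Benjamini-Hochberg, threshold 0.05), without the replicate number as a block. Ratios within a library were compared by exact permutation. Between libraries of a group, 0.320 to 0.541% of tested genes had identical values, and all 6 were kept. Values in every library are given for SLC25A3, SLC25A4, SLC25A5, SLC25A6, SLC25A28, SLC25A37 and the carriers with the 12 highest and 8 lowest called changes, except 1 that is counted but not reported here; in the lists, members with the 4 smallest adjusted p in each direction are named; SLC25A1, SLC25A21, SLC25A41, TIMM22, MPC1, MPC2, MDH1, ACLY, FECH, ALAS1, RNF167 and RANGRF were added for their roles after their values were seen. DCAF13 was added in the same way. The members, substrate groups, lists and motifs were chosen with earlier results of these data known. The fit was tested on simulated data with 50 genes changed at each size. It recovered 30% of them at a log2 change of 0.25, 88% at 0.5, 98% at 1 and 100% at 2. It called 4 unchanged genes. Far fewer genes changed there than were called in the real data, so this test does not cover a shift of the scale between groups. Shared 50-base windows were exact matches on either strand in GENCODE release 29. Figures were drawn with matplotlib 3.10.9.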

Additional observations from a re-analysis of the deposited data

How the results depend on the processing

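Counts of carriers called stayed at 25 to 30 higher and 8 to 12 lower over the 16 alternatives: other pseudocounts (0.1 and 0.5 TPM), filters (none and 5 TPM) and scalings, limma without a trend, with robust variances or with array weights, the replicate block, and leaving out each library. The median log2 fold change of the tested carriers, 0.88 as reported, was 0.94 with a pseudocount of 0.1, 0.57 with no filter, 0.63 after median-ratio rescaling, 0.57 after quantile normalization and 0.84 to 0.90 when a library was left out. Of 621 values of single carriers over the alternatives, 607 kept their direction and side of the threshold. SLC25A1 turned to -0.26 after median-ratio rescaling, -0.30 after quantile normalization, -0.010 without LF3 replicate 3 and -0.0077 without CON replicate 1 (range when a library was left out -0.010 to 0.036). SLC25A4 turned to -0.24 and -0.22 under the scalings, -0.0014 with array weights, -0.032 without LF3 replicate 1 and -0.053 without CON replicate 2 (range -0.053 to 0.052). SLC25A25 was 0.018 after median-ratio rescaling, without a call, and -0.021 after quantile normalization. The cause of these shifts was not tested, beyond the lower median of all genes that the scalings set. With the replicate block, 6536 genes were called higher and 3986 lower, against 6489 and 3938 without it, and 27 carriers were higher and 9 lower, as without it. Deviations of same-numbered libraries correlated at 0.048, 0.11 and 0.16, and CON replicate 1 correlated somewhat better with LF3 replicate 2 (0.074). With 3 libraries in each group, these values cannot settle whether the numbers pair the samples. The log2 ratios of paralogs kept their direction at all 3 pseudocounts and without each library, but SLC25A33/SLC25A36 exceeded SLC25A28/SLC25A37 at pseudocounts of 0.1 (2.28 and 2.20) and 0.5 TPM (2.19 and 2.17) and without CON replicate 1 (2.07 and 2.02). TPM gives no depth, so what depth limits is unknown.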
